A study of Rattus norvegicus and Mus musculus with 24 samples.

Results

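The genes described here are those of vitamin D metabolism and calcium handling in the kidney. They are CYP2R1, CYP27B1 and CYP24A1, the enzymes that make and break down active vitamin D; VDR, its nuclear receptor; TRPV5 and TRPV6, the calcium channels of the distal nephron; CALB1 and S100G, the calcium-binding proteins calbindin-D28k and calbindin-D9k; ATP2B1, a calcium pump of the plasma membrane; and CASR, the calcium-sensing receptor. The 10 genes were given by name and looked up by symbol. All 10 were found among the 17376 symbols of the mouse data and 9 among the 14931 symbols of the rat data, where VDR was not analysed here. Every gene found passed the filter on low values, in mouse and in rat.

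In the body, vitamin D from skin and diet is hydroxylated by CYP2R1, mostly in the liver, and then by CYP27B1 in the mitochondria of proximal tubule cells, which gives the active hormone calcitriol. Calcitriol binds VDR, which pairs with RXR on DNA and turns on CYP24A1, the enzyme that inactivates the hormone, so that the pathway limits itself. Parathyroid hormone raises CYP27B1 and lowers CYP24A1, whereas FGF23, acting through klotho and FGF receptors, does the reverse. In the distal convoluted and connecting tubules, calcium enters the cell through TRPV5 and TRPV6, is carried by the calbindins and leaves through ATP2B1 and a sodium-calcium exchanger, and several of these genes are known targets of VDR.

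The study compared animals that lack *Ctns*, the gene of the lysosomal cystine carrier cystinosin, with wild-type littermates, by bulk RNA sequencing of kidney with 1 library per animal. The mice were of a C57BL/6 line, with 4 *Ctns* KO animals (numbers 3, 5, 6 and 8) and 4 WT animals (numbers 1, 2, 4 and 7). The rats were of a Sprague-Dawley line, with 8 *Ctns* KO animals (even numbers 18 to 32) and 8 WT animals (odd numbers 17 to 31). Both are described as knockout lines with no tissue-specific driver, and neither age, sex nor treatment of the sequenced animals is given in the labels. The rats fell into the number ranges 17 to 24 and 25 to 32, each with 4 KO and 4 WT animals, and what the numbers stand for is not given. The labels name kidney cortex as the tissue and proximal tubule as the cell type, and their protocol speaks of dissected tubules, whereas the methods of the study speak of cortex.

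Reads on genes ranged from 19309371 to 44449845 per mouse and from 24684097 to 40629873 per rat. In the mice the scaled value of CTNS, on a scale where the 75th percentile of each library is 1, was 0.319 to 0.342 in the KO and 0.824 to 1.03 in the WT animals. In the rats CTNS was 16.8 to 22.2 CPM (reads scaled to a common library size) in the KO and 19.2 to 27.8 CPM in the WT animals, so the groups overlapped and the level of CTNS could not check the labels of single rats. Markers of the thick limb, distal convoluted tubule, connecting tubule, intercalated cells, macrophages, podocytes and endothelium were detected in all groups, which shows that the libraries held more than proximal tubule. In bulk tissue, fewer cells of a type and less RNA per cell cannot be told apart, and this holds for every difference given here.

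The starts of rat TRPV6, CYP27B1 and TRPV5 are shown first, since among the genes with a start found these had the largest changes that passed the test in rats 25 to 32; ATP2B1 and CYP2R1 also passed there and are not shown. A start was found for 7 of the 10 genes in the RefSeq annotation of the rat assembly GRCr8, and those of Cyp24a1, Calb1 and S100g were not used here. Each line gives the 250 bases before the transcription start, 5′ to 3′ on the strand of the gene. Capitals mark the core words of nuclear receptor sites that were searched for, namely AGGTCA and its variants AGTTCA and GGTTCA and GGGTCA, and the TATA box letters TATAAA, on either strand.
Trpv6 (GRCr8 chr4:71489668-71489917, minus strand): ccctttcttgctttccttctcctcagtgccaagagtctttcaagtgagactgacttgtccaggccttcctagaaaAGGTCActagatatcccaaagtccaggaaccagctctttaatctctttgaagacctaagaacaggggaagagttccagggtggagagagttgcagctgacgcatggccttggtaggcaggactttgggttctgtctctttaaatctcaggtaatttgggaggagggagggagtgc
Trpv5 (GRCr8 chr4:71529383-71529632, minus strand): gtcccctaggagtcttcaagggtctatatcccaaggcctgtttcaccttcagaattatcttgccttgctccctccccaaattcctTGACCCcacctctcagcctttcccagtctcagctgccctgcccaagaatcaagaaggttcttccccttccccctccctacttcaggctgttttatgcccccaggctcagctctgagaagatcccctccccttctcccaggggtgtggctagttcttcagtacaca
Cyp27b1 (GRCr8 chr7:64756376-64756625, plus strand): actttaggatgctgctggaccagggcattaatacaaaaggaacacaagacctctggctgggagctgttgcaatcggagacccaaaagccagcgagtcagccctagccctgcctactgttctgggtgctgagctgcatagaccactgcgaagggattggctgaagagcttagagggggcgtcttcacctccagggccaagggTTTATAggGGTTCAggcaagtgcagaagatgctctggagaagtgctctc
The Trpv6 sequence held AGGTCA on the strand of the gene, 175 bases before the start. Trpv5 held GGGTCA on the other strand, 165 bases before the start. Cyp27b1 held GGTTCA 41 bases before the start and, beside it, TATAAA on the other strand at 49 bases. Such short words are common: of 33469 rat promoters of this length, 14.1% held AGGTCA, 12.2% AGTTCA, 9.77% GGTTCA, 11.9% GGGTCA and 12.9% TATAAA. The full response element of VDR is a pair of such words with 3 bases between them. Only exact repeats were searched for, AGGTCANNNAGGTCA (0.0209% of promoters) and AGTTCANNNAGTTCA (0.00598%), and none of the 7 genes had either in this window. Mixed pairs and pairs of the other words were not searched for. With repeats this rare, their absence says little.

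In the mouse, levels could be set side by side per length, as the scaled value per kilobase of exon (mm10, GENCODE vM21). In the 4 WT mice S100g was by far the most abundant at 24.8 ± 5.57 (SD), followed by Calb1 at 2.97 ± 1.05 and Vdr at 1.87 ± 0.312. Casr came next at 0.530 ± 0.0238 per kilobase, then Cyp24a1 at 0.411 ± 0.300, Atp2b1 at 0.292 ± 0.0306 and Trpv5 at 0.267 ± 0.0303. The lowest were Cyp27b1 at 0.0881 ± 0.0631 per kilobase, Trpv6 at 0.0173 ± 0.00322 and Cyp2r1 at 0.0173 ± 0.0035. Calb1 and Vdr overlapped between animals, as did the neighbours from Casr to Trpv5 and the pair Trpv6 and Cyp2r1, whereas S100g, Cyp27b1 and the drop from Vdr to Casr stood apart from the next gene in the order. Trpv5 (chr6:41652173-41680769) and Trpv6 (chr6:41620624-41636405) are neighbours on the minus strand of mouse chromosome 6. Their transcripts shared none of their 3242 and 4074 windows of 50 bases, so reads of these channels can be told apart.

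Across the comparisons, some of these genes passed an adjusted p of 0.05 in rats and none did in mice. In the mice, 0 of 10 genes passed in limma, where 8.7% of all symbols did, and 3 had an unadjusted p under 0.05 (CYP2R1, TRPV5 and TRPV6); edgeR and DESeq2 on recovered reads also called 0 of the 10. Over all 16 rats, edgeR called 3 of 9 (TRPV6 and CALB1 higher, S100G lower), against 27.5% of all symbols (15.2% higher and 12.3% lower). In rats 17 to 24 it called 0 of 9, where 7.26% of symbols were called, with 1 at an unadjusted p under 0.05. DESeq2 called 1 there (TRPV6), and 1216 of 13615 symbols in all. In rats 25 to 32 edgeR called 7 of 9, where 43.8% of symbols were called. Of these, 3 genes were higher (21.8% of all symbols) and 4 lower (22.1%). The groups did not overlap for 1 of 10 genes in mice (14.2% of all symbols), 1 of 9 over all rats (5.84%), 1 of 9 in rats 17 to 24 (13.7%) and 6 of 9 in rats 25 to 32 (40.3%). P-values set the difference between groups against the spread between animals within them. Over all rats the fit held no term for the number range, so that spread includes the difference between the ranges.

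**Figure D1:**
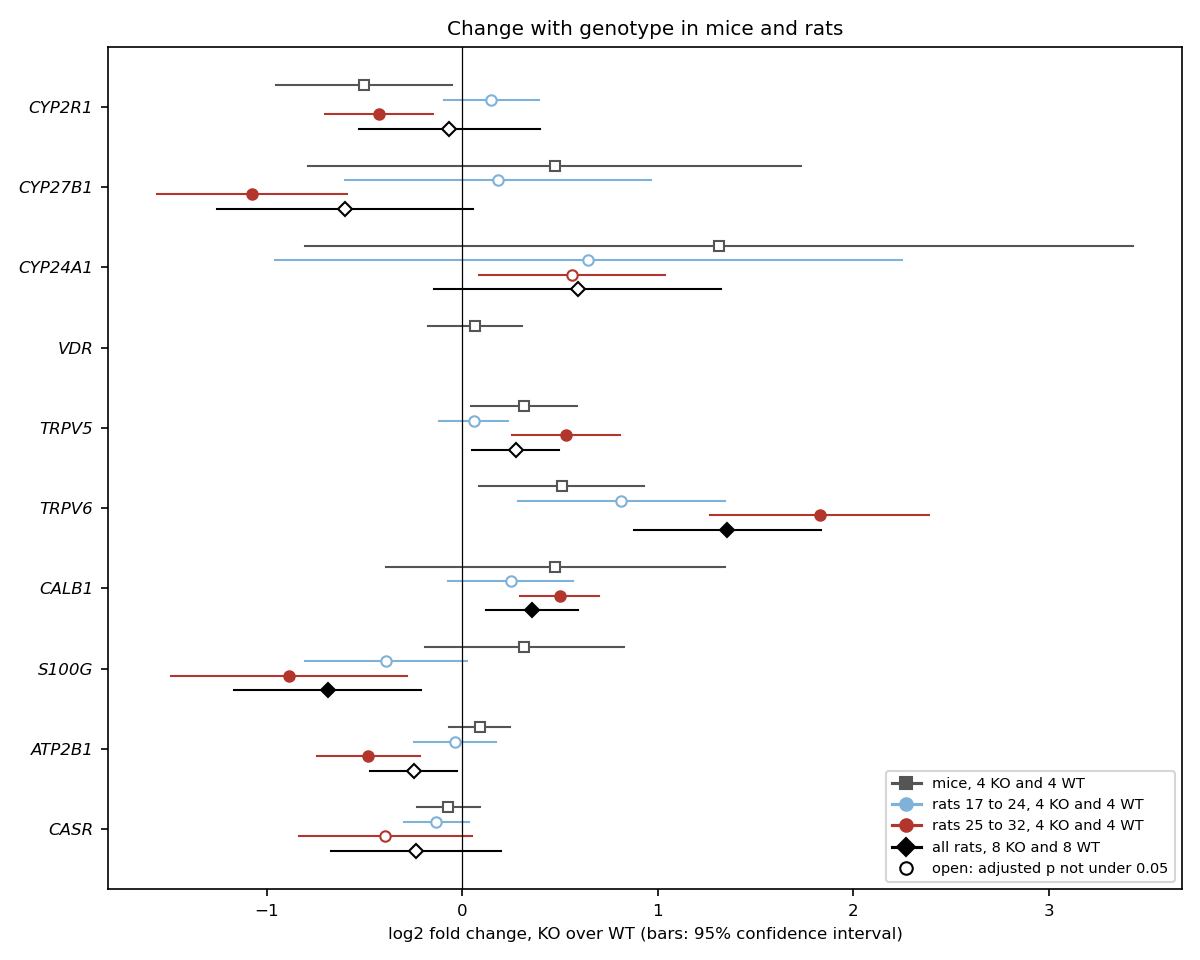
Log2 fold change of each gene, KO over WT, with 95% confidence intervals, in mice (4 and 4), rats 17 to 24 (4 and 4), rats 25 to 32 (4 and 4) and all rats (8 and 8). Filled symbols passed an adjusted p of 0.05; TRPV6 lies furthest to the right in rats 25 to 32, at 1.83, and CYP27B1 furthest to the left, at -1.08.

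CYP27B1, the activating enzyme, was lower in *Ctns* KO rats of the later numbers. Its level was 3.39, 2.18, 2.89 and 1.82 CPM in KO rats 26, 28, 30 and 32. It was 3.83, 6.07, 5.80 and 6.15 CPM in WT rats 25, 27, 29 and 31. Every KO rat lay under every WT rat, and among the WT animals rat 25 was the low one. The log2 fold change was -1.08 (SE 0.220, adjusted p = 0.00289, edgeR), and it passed with any single rat left out. Among rats 17 to 24 the values were 3.70, 1.73, 2.57 and 1.82 CPM in KO rats 18, 20, 22 and 24 and 1.81, 1.002, 2.83 and 3.05 CPM in WT rats 17, 19, 21 and 23. These groups overlapped (log2 fold change 0.18, SE 0.352, adjusted p = 0.838). The KO means of the ranges were close, 2.46 ± 0.914 and 2.57 ± 0.704 CPM (SD, n = 4), while the WT means were 2.17 ± 0.947 and 5.46 ± 1.10 CPM. The test that the genotype change differed between the ranges gave -1.26 on the log2 scale (SE 0.435, adjusted p = 0.0602, edgeR; 0.0293 in DESeq2). Reads on CYP27B1 were few, 34 to 235 per rat.

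In mice CYP27B1 showed no ordered difference. The scaled values were 0.412, 0.253, 0.228 and 0.154 in KO mice 3, 5, 6 and 8 and 0.110, 0.111, 0.428 and 0.190 in WT mice 1, 2, 4 and 7. WT mouse 4 was the highest of all 8 animals and WT mice 1 and 2 the lowest. The log2 fold change was 0.47 (SE 0.525, 95% confidence interval -0.79 to 1.73, adjusted p = 0.690, limma).

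CYP24A1, the inactivating enzyme and a direct target of the receptor, had a higher mean in KO animals in each comparison without passing the threshold in any. In rats 25 to 32 it was 332, 406, 245 and 242 CPM in KO rats 26, 28, 30 and 32 and 210, 208, 277 and 136 CPM in WT rats 25, 27, 29 and 31. The groups overlapped through WT rat 29, and the log2 fold change was 0.56 (SE 0.215, adjusted p = 0.0561, edgeR; 0.0244 in DESeq2). In rats 17 to 24 the KO values were narrow, at 225, 192, 172 and 184 CPM. WT rats 17, 21 and 23 were lower, at 69.7, 45.8 and 63.6 CPM, while WT rat 19 reached 318 CPM. With rat 19 the log2 fold change was 0.64 (SE 0.663, adjusted p = 0.676), and without it 1.70 and past the threshold, so this animal decided the call. Over all rats the means were 250 ± 80.6 and 166 ± 103 CPM (SD, n = 8; log2 fold change 0.59, adjusted p = 0.225).

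The mice repeated this wide spread. CYP24A1 was 2.12, 3.55, 3.37 and 1.62 in KO mice 3, 5, 6 and 8 and 1.80, 2.72, 0.192 and 1.14 in WT mice 1, 2, 4 and 7, as scaled values. WT mouse 4 was the lowest by far, and the groups overlapped. The log2 fold change of 1.31 had an SE of 0.872 and an interval from -0.80 to 3.43 (adjusted p = 0.469, limma). It was 0.51 without WT mouse 4, ranged up to 1.79 with other mice left out, and was 0.65 on the log2(value + 1) scale.

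**Figure D2:**
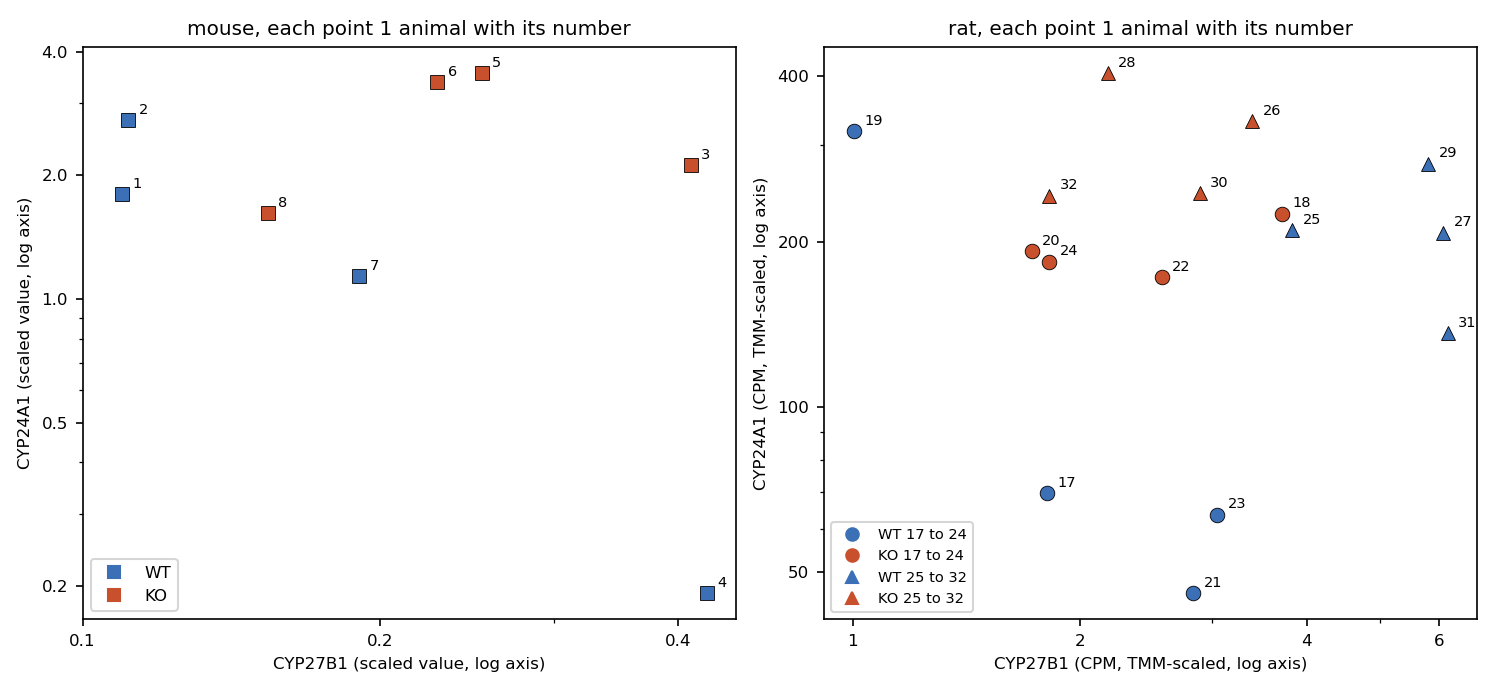
CYP24A1 against CYP27B1 in each animal on log axes, as scaled values in mice and CPM in rats, with the animal's number beside each point. KO rats 25 to 32 (red triangles) lie to the left of the WT rats of that range (blue triangles), and WT rat 19 and WT mouse 4 lie at opposite corners of their panels.

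Since these enzymes act in opposite directions, the reads on CYP24A1 were divided by those on CYP27B1 in each animal, a measure chosen after the values were seen. In rats 25 to 32 the ratio was 84.9 to 186 in KO and 22.2 to 54.8 in WT animals, without overlap. The mean log2 ratio was 1.67 higher in KO rats (p = 0.0286 in a two-sided exact permutation test, which cannot go lower with 4 animals a group; 0.0571 after adjustment over 4 comparisons). In rats 17 to 24 the ratio was 60.7 to 111 in KO rats and 16.2 to 317 in WT rats, and the difference of 0.87 did not pass (exact p = 0.4). WT rat 19 held 10782 reads on CYP24A1, a number passed only by KO rat 28, and 34 on CYP27B1, the fewest of all rats. Over all 16 rats the median ratio was 99.4 in KO and 36.3 in WT animals (log2 difference 1.27, exact p = 0.0266, adjusted 0.0571). In mice the medians were 12.3 and 11.2 and the ranges 5.14 to 14.8 in KO and 0.449 to 24.6 in WT animals (exact p = 0.743). WT mouse 4 had the lowest ratio, with 280 reads on CYP24A1 and 623 on CYP27B1.

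CYP2R1, the first hydroxylase, was low in mouse kidney. In mice it was 0.0245, 0.0241, 0.0236 and 0.0295 in KO mice 3, 5, 6 and 8 and 0.0295, 0.0323, 0.0463 and 0.0377 in WT mice 1, 2, 4 and 7, from 23 to 78 reads. The KO values lay at or below the lowest WT value (log2 fold change -0.50, SE 0.209, adjusted p = 0.176, limma). In rats 25 to 32 it fell from 9.73 ± 0.729 to 7.23 ± 1.02 CPM (SD, n = 4; log2 fold change -0.43, SE 0.125, adjusted p = 0.0182, edgeR). The single values were 8.52, 6.03, 7.19 and 7.16 CPM in KO and 9.48, 10.2, 10.4 and 8.82 CPM in WT rats, which did not overlap, and the call was lost in 3 of 8 fits that left out a rat. Among rats 17 to 24 the values were 13.6 to 17.9 CPM in KO and 12.8 to 16.5 CPM in WT rats (log2 fold change 0.15, adjusted p = 0.523). The genotype change differed between the ranges by -0.57 on the log2 scale (SE 0.169, adjusted p = 0.0323), where 14.7% of symbols passed that test.

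VDR, the receptor, was measured in the mice only. Its scaled values were 7.89, 9.22, 9.06 and 7.84 in KO mice 3, 5, 6 and 8 and 9.06, 9.59, 7.38 and 6.71 in WT mice 1, 2, 4 and 7. The groups overlapped, and the log2 fold change of 0.07 had an interval from -0.17 to 0.31 (adjusted p = 0.804, limma), which leaves out a change of 2-fold in either direction.

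TRPV6, a calcium channel of the apical membrane, was the gene of this group with the largest fold change in the rats. Over all rats it was 2.11 ± 0.655 CPM in KO and 0.822 ± 0.262 CPM in WT animals (SD, n = 8), a 2.56-fold difference (log2 fold change 1.36, SE 0.227, adjusted p = 0.000397, edgeR). The KO rats ranged from 1.36 to 3.01 CPM with a median of 2.19, and the WT rats from 0.484 to 1.17 CPM with a median of 0.859, so that every KO rat lay above every WT rat. The call was kept with any single rat left out. Among rats 25 to 32 the values were 2.27, 2.76, 3.01 and 2.55 CPM in KO rats 26, 28, 30 and 32 and 0.484, 0.827, 1.13 and 0.519 CPM in WT rats 25, 27, 29 and 31. The difference was 3.55-fold there (log2 fold change 1.83, SE 0.254, adjusted p = 0.000274). Among rats 17 to 24 the values were 1.37, 2.10, 1.44 and 1.36 CPM in KO rats 18, 20, 22 and 24 and 1.17, 0.619, 0.892 and 0.942 CPM in WT rats 17, 19, 21 and 23. These groups did not overlap either, with a log2 fold change of 0.81 (SE 0.243) and an adjusted p of 0.0653 in edgeR and 0.0499 in DESeq2. The depth behind TRPV6 was low, 41 to 98 reads per KO rat and 13 to 32 per WT rat. The change was 1.02 larger on the log2 scale in the later numbers, which did not pass the test of the difference (SE 0.356, adjusted p = 0.0618, edgeR; 0.0371 in DESeq2).

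In mice TRPV6 was 0.0747, 0.0816, 0.0810 and 0.0515 in KO mice 3, 5, 6 and 8 and 0.0607, 0.0499, 0.0539 and 0.0382 in WT mice 1, 2, 4 and 7, from 45 to 128 reads. KO mice 3, 5 and 6 lay above all WT mice and KO mouse 8 among them. The log2 fold change was 0.51 (SE 0.196, unadjusted p = 0.0221 and adjusted p = 0.143, limma).

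TRPV5, the other channel and the main site of regulated calcium entry in the distal tubule, was higher in KO rats of the later numbers. The values were 34.0, 31.5, 40.8 and 28.6 CPM in KO rats 26, 28, 30 and 32 and 24.8, 26.7, 20.8 and 21.2 CPM in WT rats 25, 27, 29 and 31. Every KO rat lay above every WT rat (log2 fold change 0.53, SE 0.125, adjusted p = 0.00645, edgeR). Rats 17 to 24 had a KO mean of 32.6 ± 3.07 CPM and a WT mean of 31.5 ± 2.72 CPM (SD, n = 4; log2 fold change 0.06, adjusted p = 0.769). The KO mean of 33.7 ± 5.22 CPM in the later numbers lay beside both of these, and the WT mean there was 23.4 ± 2.87 CPM. The difference between the ranges was 0.47 on the log2 scale (SE 0.154, adjusted p = 0.0466), and that call stayed in 4 of 16 fits that left out a rat. Over all rats TRPV5 did not pass (log2 fold change 0.27, adjusted p = 0.0639), and it did once the fit held a term for the number range (0.29, adjusted p = 0.0256). In mice the values were 1.10, 1.04, 1.33 and 0.866 in KO and 0.879, 0.982, 0.743 and 0.854 in WT animals, with KO mouse 8 again the one inside the WT range. The log2 fold change was 0.32 (SE 0.124, adjusted p = 0.162, limma) and passed the threshold only without that mouse.

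**Figure D3:**
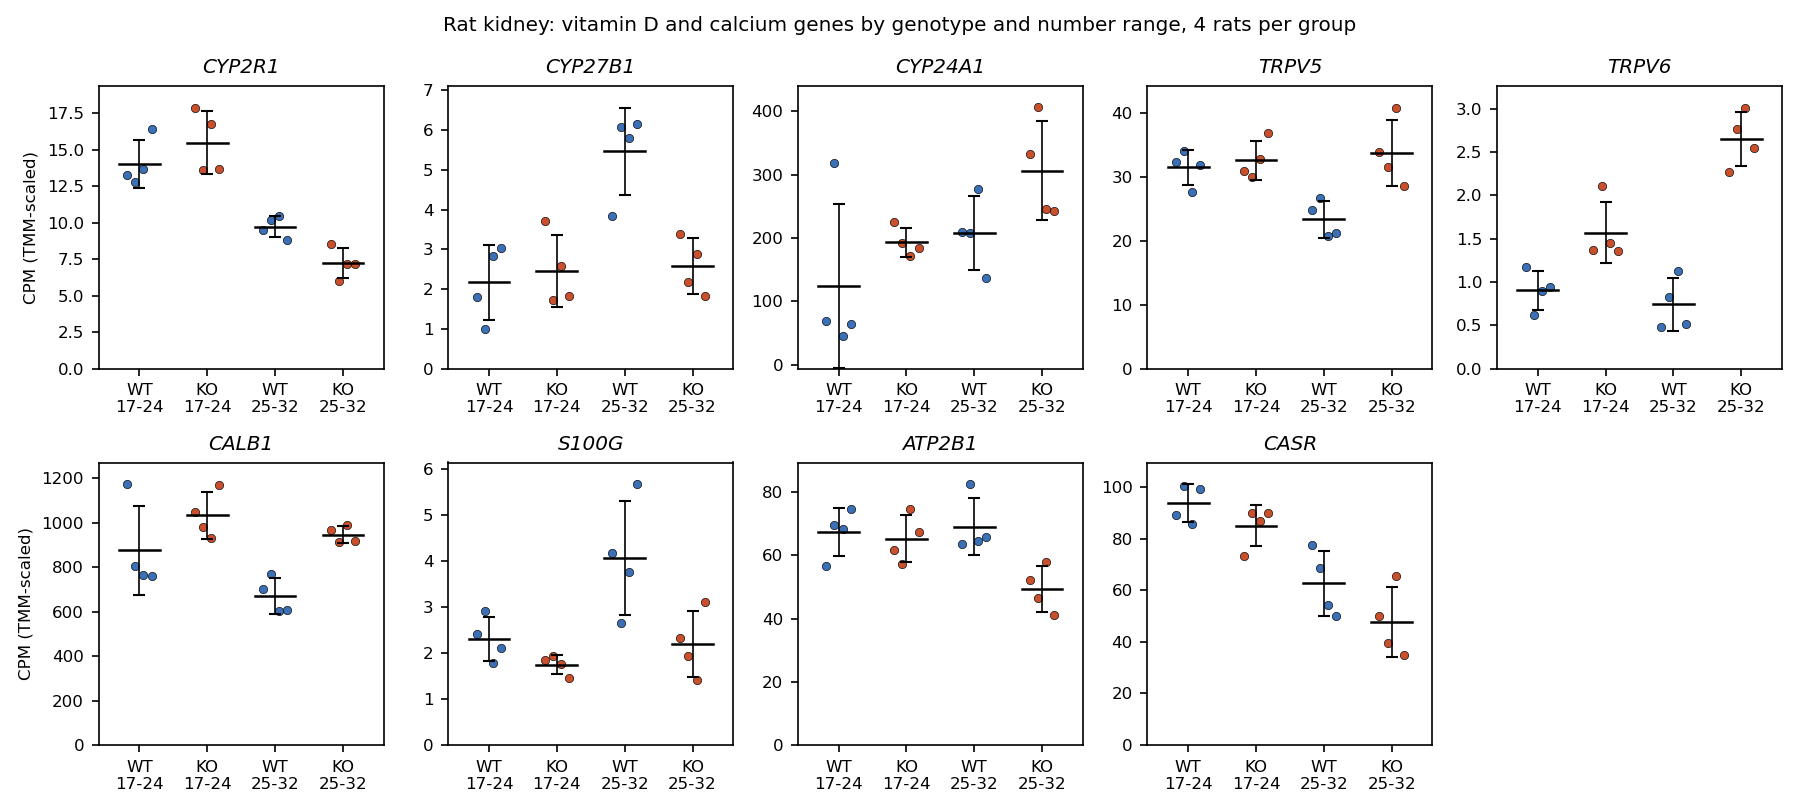
Level of the 9 genes in each rat (CPM, linear axes from 0 or, where an error bar reaches below it, from under 0), by genotype and number range, 4 rats per group; lines are means and bars 1 SD. TRPV6 is higher in KO than in WT rats in both ranges, while for CYP27B1 and TRPV5 the WT rats of numbers 25 to 32 stand apart from the other groups.

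CALB1, which ferries calcium through distal cells, was higher in KO rats. Over all rats it was 989 ± 85.9 CPM in KO and 773 ± 178 CPM in WT animals (SD, n = 8; log2 fold change 0.36, SE 0.112, adjusted p = 0.0257, edgeR), and the call was kept with any single rat left out. Among rats 25 to 32 the values were 965, 912, 990 and 916 CPM in KO and 701, 770, 601 and 608 CPM in WT animals, which did not overlap. The log2 fold change was 0.50 (SE 0.0907, adjusted p = 0.00149). Among rats 17 to 24 the values were 1047, 979, 932 and 1171 CPM in KO rats and 1173, 803, 764 and 761 CPM in WT rats. WT rat 17 was as high as the highest KO rat and the other WT rats were below all KO rats (log2 fold change 0.25, adjusted p = 0.382); without that rat the log2 fold change was 0.42 and passed. In mice CALB1 was 17.5, 16.6, 26.2 and 10.1 in KO and 8.98, 17.99, 8.82 and 14.3 in WT animals, with overlap (log2 fold change 0.48, SE 0.362, adjusted p = 0.532, limma).

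S100G, the smaller calbindin, went the other way in rats. Over all rats it was 1.97 ± 0.546 CPM in KO and 3.19 ± 1.28 CPM in WT animals (SD, n = 8; log2 fold change -0.69, SE 0.227, adjusted p = 0.0317, edgeR). This call was lost in 7 of 16 fits that left out a rat. Among rats 25 to 32 the values were 2.33, 1.94, 1.41 and 3.12 CPM in KO rats 26, 28, 30 and 32 and 4.17, 2.66, 3.77 and 5.67 CPM in WT rats 25, 27, 29 and 31. KO rat 32 lay above WT rat 27, and the call (log2 fold change -0.89, SE 0.272, adjusted p = 0.0229) was lost in 4 of 8 such fits. The means of rats 17 to 24 were 1.75 ± 0.210 and 2.31 ± 0.484 CPM (adjusted p = 0.266). S100G rested on 46 to 153 reads per rat, whereas each mouse had 13929 to 28142 reads on it. The scaled values in mice were 16.6, 15.4, 17.7 and 9.83 in KO and 12.8, 15.3, 9.64 and 9.85 in WT animals, with overlap and a log2 fold change of 0.32 (SE 0.221, adjusted p = 0.479, limma).

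ATP2B1, the pump that moves calcium out of the cell, was lower in KO rats of the later numbers. The values were 52.1, 46.5, 57.9 and 41.2 CPM in KO rats 26, 28, 30 and 32 and 63.5, 82.5, 64.5 and 65.7 CPM in WT rats 25, 27, 29 and 31, with no overlap (log2 fold change -0.48, SE 0.120, adjusted p = 0.0084, edgeR). Rats 17 to 24 had means of 65.3 ± 7.45 CPM in KO and 67.3 ± 7.59 CPM in WT animals (SD, n = 4; adjusted p = 0.884). Over all rats the log2 fold change was -0.25 (adjusted p = 0.088; 0.0379 with a term for the number range). In mice ATP2B1 was 2.14 to 2.26 in KO and 1.89 to 2.38 in WT animals, and the interval of the log2 fold change ran from -0.07 to 0.24.

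CASR, which senses calcium at the cell surface and is most abundant in the thick limb, passed in no genotype comparison. It was 50.1, 39.6, 65.7 and 35.0 CPM in KO and 77.6, 68.8, 54.2 and 50.2 CPM in WT rats of numbers 25 to 32, with overlap (log2 fold change -0.39, SE 0.199, adjusted p = 0.133, edgeR). Rats 17 to 24 had means of 85.0 ± 7.99 and 93.8 ± 7.36 CPM (adjusted p = 0.358). In mice it was 2.05 to 2.60 in KO and 2.42 to 2.66 in WT animals (log2 fold change -0.07, interval -0.23 to 0.09).

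**Figure D4:**
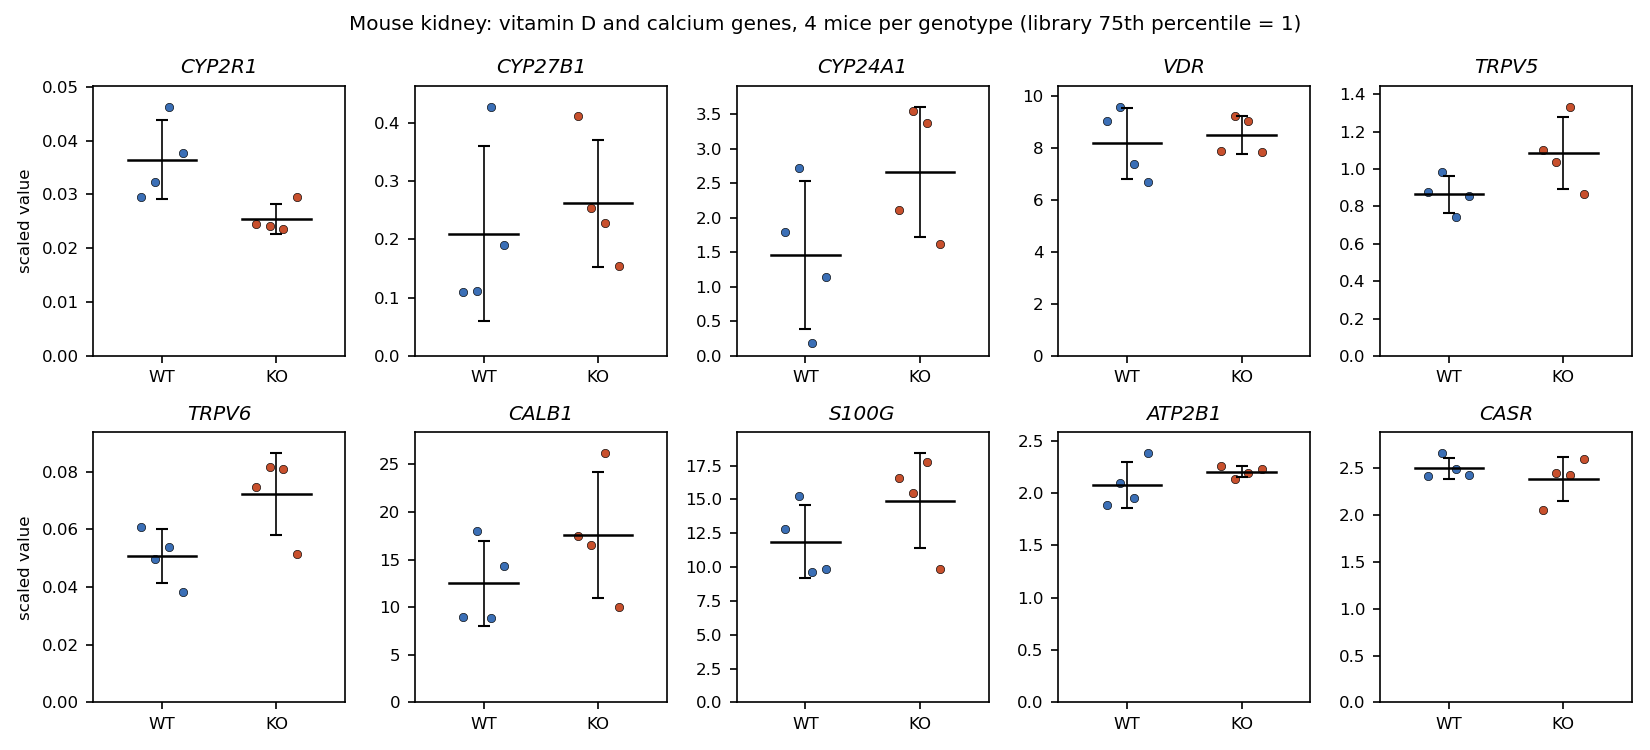
Scaled value of the 10 genes in each mouse (linear axes from 0; the 75th percentile of each library is 1), 4 mice per genotype; lines are means and bars 1 SD. The KO and WT points overlap for 9 genes, and for CYP2R1 the KO points lie below.

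Because the WT rats of the ranges looked unlike each other for several genes, they were compared in the same edgeR fit, a comparison added after the values were seen. Of the 9 genes 6 differed between WT rats 25 to 32 and WT rats 17 to 24, where 21.1% of all symbols did (11.7% higher and 9.43% lower), with 2 higher and 4 lower in the later numbers. CYP27B1 was higher in the later numbers by 1.33 on the log2 scale (SE 0.303, adjusted p = 0.00476) and S100G by 0.81 (SE 0.238, adjusted p = 0.0219). Lower there were CASR (log2 difference -0.58, adjusted p = 0.0196), CYP2R1 (-0.53, adjusted p = 0.00417), TRPV5 (-0.43, adjusted p = 0.00975) and CALB1 (-0.38, adjusted p = 0.0334). CYP24A1 (0.74, SE 0.485), TRPV6 (-0.26, SE 0.273) and ATP2B1 (0.04, SE 0.114) did not pass. This comparison and the genotype comparison in rats 25 to 32 share the same 4 WT animals, so they are not independent of each other. With each of the 8 WT rats left out in turn, the calls of CYP27B1, CYP2R1 and TRPV5 held every time, whereas those of CALB1, S100G and CASR were each lost in 3 of 8 fits. CALB1 was lost without WT rat 17, 29 or 31, at -0.21 without rat 17, and had an adjusted p of 0.0752 in an edgeR fit on the 8 WT rats alone. S100G was lost without rat 21, 23 or 31 and CASR without rat 19, 29 or 31.

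Cell type markers differed between the same WT rats, where 21.1% of all symbols did. In the later numbers 5 of 9 proximal tubule markers were higher and 1 was lower, and 4 of 7 macrophage markers were higher. Of the connecting tubule and principal cell markers 4 of 6 were lower and 1 was higher, and 4 of 4 intercalated cell, 2 of 3 distal convoluted tubule and 2 of 4 thick limb markers were lower, as were 3 of 5 of podocytes and endothelium. Their part in these differences was not tested.

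The other genes of the pathway were taken from lists named by function. Among the hormone signals that set the renal enzymes, EGR1, a transcription factor induced by FGF receptor signalling, rose in all rats (log2 fold change 1.12, SE 0.123, adjusted p = 7.99e-06, edgeR), in rats 17 to 24 (0.93, adjusted p = 0.00225) and in rats 25 to 32 (1.30, adjusted p = 8.15e-05). PTH1R, the parathyroid hormone receptor, fell in all rats (-0.48, SE 0.063, adjusted p = 4.98e-05) and within both ranges (-0.34, adjusted p = 0.0066, and -0.61, adjusted p = 0.000128). HNF4A, a factor of proximal tubule identity, fell over all rats (-0.69, adjusted p = 0.00116), as did FGFR1 (-0.22, adjusted p = 0.00661) and FGFR4 (-0.17, adjusted p = 0.018). That made 1 higher and 4 lower of 9 tested over all rats (27.5% of all symbols passed; median -0.17, against -0.02 for all symbols), 1 and 1 in rats 17 to 24 (7.26% of all symbols passed), and 1 and 4 in rats 25 to 32 (43.8%). In mice CEBPB was higher (0.71, adjusted p = 0.0299, limma) and FGFR3 (-0.41, adjusted p = 0.0263) and HNF4A (-0.30, adjusted p = 0.0481) lower, of 11 tested. Of all mouse symbols, 8.7% passed. KL, which encodes the FGF23 co-receptor klotho, was 22.8 ± 5.35 in KO and 19.7 ± 5.55 in WT mice (scaled values, adjusted p = 0.641).

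Of the genes of vitamin D uptake and other metabolism, 2 of 7 tested were lower over all rats and none was higher, where 27.5% of all symbols passed. DAB2, an adaptor of the endocytic receptors that take up vitamin D with its carrier protein, was 1 of them (log2 fold change -0.52, SE 0.124, adjusted p = 0.00515, edgeR), and the other was FDX1, the ferredoxin that hands electrons to the mitochondrial hydroxylases (-0.23, SE 0.0508, adjusted p = 0.00264). Among rats 25 to 32 DAB2 (-0.88), CUBN (-0.37) and FDX1 (-0.26) were lower, and GC, the carrier of vitamin D in plasma (0.87, adjusted p = 0.00638), and CYP27A1, another hydroxylase (0.48, adjusted p = 0.00277), were higher, which made 5 of 7 past the threshold where 43.8% of all symbols were. FDX1 alone passed of 6 tested in rats 17 to 24 (-0.20, adjusted p = 0.0239), where 7.26% of all symbols passed. In mice 0 of 9 did, where 8.7% of all symbols passed.

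Among receptor partners, RXRA, the partner of VDR, was lower over all rats (log2 fold change -0.48, SE 0.112, adjusted p = 0.00453, edgeR), as was BAZ1B (-0.24, adjusted p = 0.0162), with 8 of 10 not past the threshold, where 27.5% of all symbols passed. Of the 10, 5 were lower in rats 25 to 32, among them NCOA2 (-0.80), RXRA (-0.75) and MED1 (-0.68), and PDIA3 was higher (0.19); of all symbols, 43.8% passed there and 22.1% were lower. None of the 10 passed in rats 17 to 24 (7.26% of all symbols) and none of 12 in mice (8.7%).

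Among the genes of distal calcium and magnesium transport, S100A10, whose protein binds TRPV5 and TRPV6 and helps to bring them to the cell surface, rose most. It was 93.9 ± 46.0 CPM in KO and 32.7 ± 3.88 CPM in WT rats (SD, n = 8; log2 fold change 1.52, SE 0.252, adjusted p = 0.000369, edgeR). The rise was 0.64 in rats 17 to 24 (adjusted p = 0.00296) and 2.09 in rats 25 to 32 (adjusted p = 6.07e-07), and it differed between the ranges (1.45, SE 0.159, adjusted p = 6.4e-05). SLC8B1, the mitochondrial sodium-calcium exchanger, was higher over all rats (0.36, adjusted p = 0.0103), and PDZD3, a scaffold of apical transporters, lower (-0.47, adjusted p = 0.00598). Neither passed in rats 17 to 24 (SLC8B1 0.10, adjusted p = 0.623, and PDZD3 -0.22, adjusted p = 0.112, edgeR). Both changes differed between the ranges in the test of the difference. SLC8A1, the sodium-calcium exchanger of the distal plasma membrane, was 113 ± 36.2 CPM in KO and 122 ± 35.0 CPM in WT rats (adjusted p = 0.742). TRPM6, the magnesium channel, was 58.5 ± 17.4 and 62.7 ± 12.9 CPM (adjusted p = 0.695). In all, 2 of 14 were higher and 1 lower over all rats, with a median of -0.01, and 27.5% of all symbols passed. In rats 17 to 24 only S100A10 passed, where 7.26% of all symbols did. In rats 25 to 32, 2 were higher and 2 (PDZD3 and KLK1) lower, where 43.8% of all symbols passed. In mice BSPRY, a binding partner of TRPV5, was higher (0.59, SE 0.0898, adjusted p = 0.000948, limma) and PDZD3 lower (-0.27, adjusted p = 0.0421), of 18 tested. Of all mouse symbols, 8.7% passed.

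Of 7 genes of the paracellular route, which in the thick limb carries most of the calcium and magnesium taken up there, 2 were higher and 2 lower over all rats, where 27.5% of all symbols passed. CLDN3 (log2 fold change 0.53, adjusted p = 0.0208, edgeR) and UMOD, which encodes uromodulin (0.31, adjusted p = 0.0449), were higher, and CLDN10 (-0.50, adjusted p = 0.000326) and CLDN12 (-0.29, adjusted p = 0.0036) lower. Of the 7, 4 were higher in rats 25 to 32, with CLDN19 (0.52) and BSND (0.28) added, and 2 lower, where 21.8% of all symbols were higher and 22.1% lower. None of 7 passed in rats 17 to 24 (7.26% of all symbols) and none of 10 in mice (8.7%).

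Markers of cell types moved along with these results. Of all symbols, 22.1% were lower and 21.8% higher in rats 25 to 32. In rats 25 to 32 the summed level of 9 proximal tubule markers was 14128 to 17348 CPM in KO and 25993 to 28967 CPM in WT animals, and 8 of the 9 were lower, SLC22A6 (log2 fold change -1.12) and HNF4A (-1.10) most. The 6 markers of the connecting tubule and principal cells summed to 995 to 1115 CPM in KO and 792 to 903 CPM in WT rats, with 4 higher and 1 (AQP3) lower. Of 3 distal convoluted tubule markers tested 0 passed, by edgeR, and their list summed to 153 to 173 CPM in KO and 171 to 193 CPM in WT rats, with PVALB at 0 in some of them. Thick limb markers summed to 3146 to 4033 CPM in KO and 2432 to 3014 CPM in WT rats. Of 4 tested, 1 (UMOD) was higher, 1 (CLDN10) lower and 2 did not pass. Most of this sum was UMOD, which over all rats averaged 2828 CPM in KO and 2287 CPM in WT animals. Macrophage markers summed to 324 to 478 and 154 to 196 CPM, with 6 of 7 higher.

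In rats 17 to 24 the proximal tubule markers summed to 17607 to 18520 CPM in KO and 20426 to 23538 CPM in WT animals, with 2 of 9 lower. The connecting tubule list was 974 to 1132 CPM in KO and 1007 to 1111 CPM in WT rats there, with 0 of 6 past the threshold. Macrophage markers summed to 168 to 190 CPM in KO and 104 to 140 CPM in WT rats of this range, with 6 of 7 higher. Of all symbols, 7.26% passed in rats 17 to 24. In mice the proximal tubule markers summed to 20758 to 23692 CPM in KO and 25187 to 30090 CPM in WT animals, with 2 of 11 lower, and all 7 macrophage markers were higher. Of all mouse symbols, 8.7% passed. The part of these shifts in the changes of CYP27B1, TRPV5, TRPV6, CALB1, ATP2B1 and S100G was not tested.

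**Figure D5:**
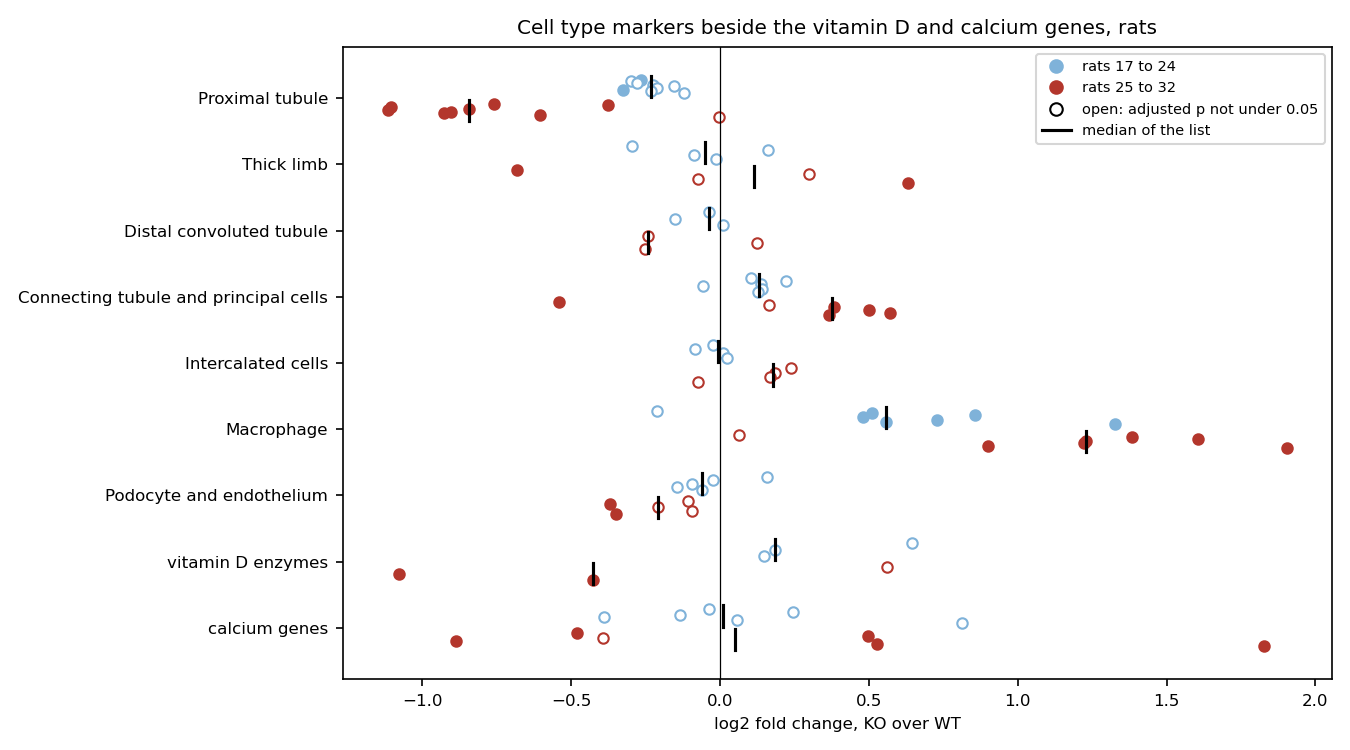
Log2 fold change, KO over WT, of each marker of 7 cell type lists and of the vitamin D enzymes and calcium genes, in rats 17 to 24 (blue) and 25 to 32 (red). Filled points passed an adjusted p of 0.05 and bars are list medians; in rats 25 to 32 the proximal tubule median is -0.84, that of connecting tubule and principal cells 0.37 and that of macrophages 1.23.

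The difference between species was tested for the 9 genes found in both, as the genotype change in rats less that in mice. All 16 rats were pooled, with no term for the number range. None passed in limma, where 1.98% of 10571 symbols did, and 2 had an unadjusted p under 0.05; edgeR on reads also called 0. S100G had the largest difference (-0.91 on the log2 scale, SE 0.351, adjusted p = 0.182), being lower in KO rats and not past the threshold in mice, followed by TRPV6 (0.87, SE 0.366, adjusted p = 0.232) and CYP27B1 (-0.87, SE 0.587, adjusted p = 0.485). For TRPV5 the difference was 0.01 with an interval from -0.38 to 0.39, and for CALB1 -0.06 with an interval from -0.65 to 0.53. The TRPV5 value averages over rat ranges with unlike changes, 0.06 in numbers 17 to 24 and 0.53 in numbers 25 to 32.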

How the data were processed

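RNA of kidney (cortex as tissue and proximal tubule cells as cell type, per the labels) was sequenced as stranded mRNA libraries with paired reads of 100 nucleotides. The submitters' processing notes name bcl2fastq 2.20, STAR 2.7.3, DESeq2 1.24.0 and R 3.6.1 and the builds mm10 and rn5; the annotation, the counter and its strand setting are not given in the sources used here. Mouse values, as the authors deposited them, are a scaled signal per gene: 0.5 was added to the reads and to the library's 75th percentile, and the first was divided by the second, as the values show. Whole reads (within 0.01) came back for 99% of values. Rat values, as the authors deposited them, are estimated counts with a small constant added, which was taken off before rounding (97.7% were whole); CPM values given here are TMM-scaled. All values of the genes described were whole reads. Symbols are of human style, so several rodent genes can share a symbol; rat KLK1 and GNAS were not whole and are uncertain, and rat WNK4 shares its values with another symbol.

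Computed here in R 4.3.3: limma 3.58.1 (trend, robust) on log2 of the mouse values with a mean of at least 0.01 and no further pseudocount, since adding 1 would equal the 75th percentile, and edgeR 4.0.16 (quasi-likelihood test, robust, TMM, its filter on low counts) on rat counts. On the mouse reads recovered, edgeR called 1198 symbols, against 1143 in limma. P-values were adjusted by Benjamini-Hochberg over all symbols tested, with a threshold of 0.05. SEs and intervals given with edgeR were worked back from the log2 fold change and the F statistic of its test. Those given with limma came from its fit. Species were compared with limma on scaled values of both. Alternatives were other pseudocounts, filters, scalings, DESeq2 1.42.0, limma-voom, the number range as a covariate and leaving out each animal; the WT comparison of ranges, the enzyme ratio and 1 added mouse setting were chosen after seeing the data. The scripts were tested on simulated data. Depth per library limits the precision of genes with few reads; libraries held 19309371 to 44449845 reads in mice and 24684097 to 40629873 in rats.

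The genes and lists were chosen with earlier results of these data known. Named were CTNS, all 10 genes and the 3 symbols most like each of CYP24A1, CYP27B1, TRPV5 and CALB1. In each list and comparison up to 3 symbols past the threshold in each direction, with the largest change, could be named. Not all of these are named in the text, among them several cell type markers. FGFR4, KL, SLC8A1, TRPM6 and BSND were named besides, after their values were seen, and GC in mice is given although it did not pass.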

Additional observations from a re-analysis of the deposited data

Results flagged for a closer look

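In 74 groups of values of these genes, 7 held an animal far from the others of its group by Dixon's test. Chance gives about 1 in 20 for independent groups. These groups overlap, since each rat genotype was taken whole and again within each number range, so that rate cannot be set against this count. WT rat 19 had 318 CPM of CYP24A1 against 45.8 to 69.7 CPM in the other WT rats of its range. WT rat 17 had 1173 CPM of CALB1, against 601 to 803 CPM in the other 7 WT rats and 761 to 803 CPM in those of its range, which made up 2 of the 7. WT rat 25 had 3.83 CPM of CYP27B1 against 5.80 to 6.15 CPM, and WT rat 27 had 82.5 CPM of ATP2B1 against 63.5 to 65.7 CPM. KO rat 20 had 2.10 CPM of TRPV6 against 1.36 to 1.44 CPM. KO mouse 8 had a scaled CYP2R1 value of 0.0295 against 0.0236 to 0.0245 in the other KO mice.

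The change with genotype differed between the rat number ranges for CYP2R1, by -0.57 on the log2 scale, and for TRPV5, by 0.47, in the test of the difference itself. Both calls depended on single animals: that of CYP2R1 was kept in 7 of 16 fits with a rat left out and that of TRPV5 in 4 of 16.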

How the results depend on the processing

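No paired analysis was run, because KO and WT were different animals and the labels give no litter or pair. Of the values of single genes recomputed under other settings, 813 kept their side of the threshold, 46 fell short of it and 29 passed it anew, and none that passed changed direction. In mice, 751 symbols passed with log2(value + 1) and no filter, against 1143. Of the genes described, 5 passed over all rats with the number range as a covariate, against 3. Of all symbols 4551 of 11703 passed with it, against 3180 of 11584. In rats 17 to 24, DESeq2 called 1 (TRPV6), against 0, and 1216 of 13615 symbols, against 843 of 11610. For the difference between ranges, DESeq2 called 4 and limma-voom 1, against 2. Of all symbols these called 2274 of 13854 and 1782 of 11839, against 1745 of 11839. For the species difference, 329 symbols passed with log2(value + 1), against 209. The causes were not tested.

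With each animal left out, mouse calls ranged from 633 to 1391 symbols and from 0 to 1 of the genes described. Over all rats 2536 to 3478 symbols and 2 to 5 genes passed. In rats 17 to 24 these were 504 to 930 and 0 to 2, and in rats 25 to 32 they were 3946 to 5242 and 5 to 8. For the difference between ranges they were 1010 to 2392 and 0 to 2. The WT comparison of ranges gave 1852 to 2468 symbols and 3 to 6 genes. The species difference, with each mouse left out, gave 109 to 265 symbols and 0 genes. The difference in enzyme ratio ranged from 1.42 to 1.86 in rats 25 to 32, 1.08 to 1.69 over all rats, 0.375 to 1.81 in rats 17 to 24 and -0.383 to 1.54 in mice.

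Few reads limit the precision for TRPV6 (13 to 98 reads per rat), CYP27B1 (34 to 235) and S100G (46 to 153).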

Other observations

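Within the groups of genotype and number range, some symbols varied from rat to rat much as the genes described did. Over 16 rats and 10819 symbols, after the group means were taken off, the log2 level of CYP24A1 was most like that of ZNF839 (Pearson r 0.849), LAT2 (0.839) and BCL6 (0.807). That of CYP27B1 was most like CRLS1 (0.900), SFXN1 (0.898) and SHMT1 (0.894). TRPV5 was most like RAB8B (0.947), IQGAP1 (0.940) and MAP3K2 (0.937), and CALB1 most like LRP8 (0.857), TFRC (0.847) and RRAGD (0.845). These are the highest of many values over few animals, which share library and depth, and are given as a description without a test.

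In mice GC, the plasma carrier of vitamin D, was 2.78 ± 0.690 in KO and 4.68 ± 1.08 in WT animals as scaled values, which did not overlap (log2 fold change -0.76, SE 0.228, adjusted p = 0.0959, limma).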
